A study of Saccharomyces cerevisiae with 12 samples.

Results

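Mitochondrial ribosomal protein genes encode the protein subunits of the ribosome inside mitochondria. In the deposited 5PSeq table they were taken by symbol, as every gene whose symbol begins with MRPL, MRPS, RSM or MRP followed by a digit, without MRP8. The rule gave 65 of the 6302 genes listed, 37 for the large and 28 for the small subunit, and it used no read count. All 65 were found by locus tag in the R64 annotation of the yeast genome.

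Mitochondrial ribosomes translate the few messages of the mitochondrial genome, most of which encode membrane subunits of the respiratory chain and the ATP synthase. Their RNA comes from mitochondrial DNA. Apart from Var1, a small-subunit protein made inside the organelle, their proteins are encoded in the nucleus, made on cytosolic ribosomes and imported. Many of these nuclear messages carry sites for Puf3, an RNA-binding protein that promotes their decay when cells grow on glucose, and cells must balance their output with that of the mitochondrial genome.

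5PSeq sequences mRNA fragments with a phosphate at the 5′ end, which arise as transcripts are degraded. A gene's 5PSeq reads also depend on how much of its mRNA is present, and since RNA-seq reads are not used here, more decay and more mRNA cannot be told apart. The study asked whether ribosome collisions in cells that lack tRNA modifications lead to decay of the mRNA through Hel2. Yeast of the BY4741 background grew in YPD at 30°C and 200 rpm, and total RNA of 4 strains was sequenced in 3 libraries each.

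The strains share his3Δ1, leu2Δ0 and ura3Δ0. The wild type is labelled met15Δ0 in addition, and the 3 mutants are not. The hel2∆ strain carries LEU2 in place of HEL2, which encodes the ubiquitin ligase that recognises collided ribosomes. The ncs2∆elp6∆ strain, called the double mutant here, carries HIS3MX at NCS2 and URA3 at ELP6. Ncs2 acts in thiolation of the wobble uridine (U34) of certain tRNAs, and Elp6 is a subunit of Elongator, which modifies the same base at another position. The ncs2∆elp6∆hel2∆ strain, called the triple mutant here, carries all 3 deletions. Since hel2∆ differs from wild type in HEL2, LEU2 and MET15, and the triple mutant differs from the double mutant in HEL2 and LEU2, these factors cannot be told apart within a comparison. The double mutant differs from wild type in NCS2, ELP6, HIS3MX, URA3 and MET15, and the triple mutant in all of these and in HEL2 and LEU2, so the same holds for them. The labels do not say whether the replicates were separate cultures, so p-values measure the spread between libraries, which may be technical.

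Library totals ran from 104202 to 415323 reads, with a median of 215412. Reads on the deleted genes were lower in the strains that lack them, though not always absent. NCS2 had 18 reads in wild type, none in the double mutant and 2 in the triple mutant. ELP6 had 20, 4 and 10, with up to 5 in a single triple-mutant library, and HEL2 had 48 in wild type, 89 in the double mutant, 8 in hel2∆ and 5 in the triple mutant. Levels are given as CPM (reads scaled to a common library size) scaled by the trimmed mean of M-values (TMM), with the mean ± SD over 3 libraries. Fold changes are log2 values from edgeR's quasi-likelihood test with their standard error (SE), and a gene was counted as changed at a Benjamini-Hochberg adjusted p under 0.05 over all genes tested.

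The 65 genes held 9603 reads in the 12 libraries together. A single gene had between 8 and 1009 reads, with a median of 79, and 44 genes had at least 1 read in every library. The 4 genes with the most reads, MRPS9, MRPL24, MRP20 and MRP51, held 2991 of them (31.1%). The low-count filter was passed by 27 genes, 13 of the large and 14 of the small subunit, of 3378 genes in all. Since a gene with enough reads in a single strain can pass, counts over the 27 describe the genes that were measured and not all 65. The 27 had a median coding length of 858 nt and the other 38 a median of 475.5 nt. Short genes were therefore the ones most often left untested.

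Per kilobase of coding length, the 5PSeq level of the 27 tested genes ran from 31.6 to 453 CPM with a median of 86.0, and the untested genes had a median of 30.1. The median was 182 CPM per kb for genes of the cytosolic ribosome and 37.7 over the 5772 genes with a known length. MRPS9, the uS9 protein of the small subunit, had the highest level per length at 453 CPM per kb. It was followed by MRPL24, the bL28 protein, at 354 and MRP20, the uL23 protein at the polypeptide exit tunnel, at 324. The lowest of the tested genes were RSM22, a methyltransferase-like protein, at 31.6, MRP1 at 37.6, and RSM23, the homologue of mammalian DAP3, at 40.6. Genes for parts of the same particle thus differed widely in 5PSeq level per length.

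**Figure D1:**
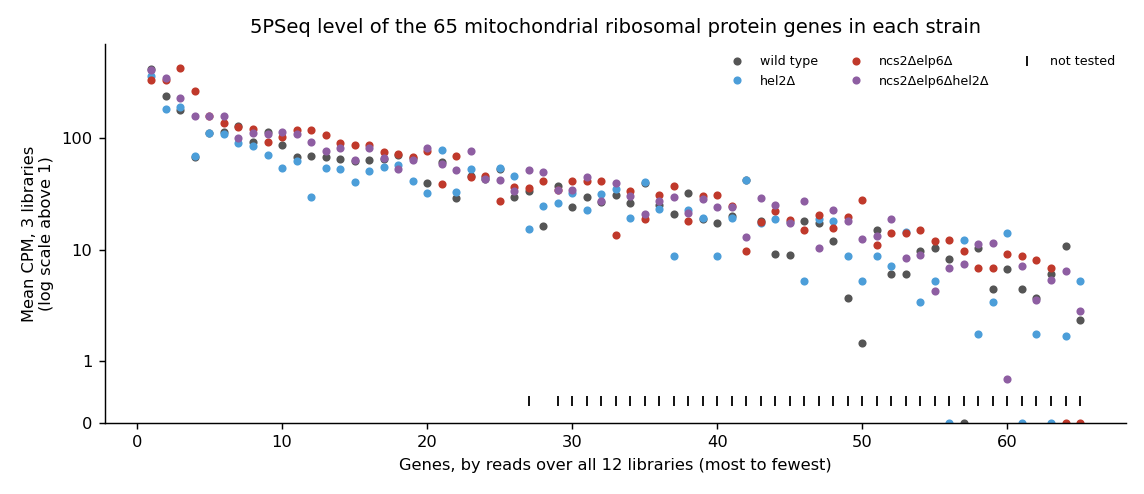
Mean 5PSeq level of each of the 65 genes in the 4 strains (y axis, CPM scaled by TMM, log scale above 1 and linear below), with the genes on the x axis from most to fewest reads. Points are means of 3 libraries, ticks mark the 38 untested genes, and most of those lie at the right end, where the strains can be told apart least.

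Summed over all 65, the genes took a larger mean part of the reads in the strains without Ncs2 and Elp6. In wild type, 0.352%, 0.227% and 0.292% of the reads of the 3 libraries fell on the 65 genes. The shares were 0.270%, 0.214% and 0.259% in hel2∆. In the double mutant they were 0.393%, 0.518% and 0.449%, and in the triple mutant 0.357%, 0.475% and 0.339%. All 3 double-mutant libraries lay above all 3 wild-type libraries, whereas the triple mutant overlapped wild type in its lowest value.

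The mean share was 0.290% ± 0.063 (SD, n = 3) in wild type, 0.248% ± 0.030 in hel2∆, 0.453% ± 0.063 in the double mutant and 0.390% ± 0.074 in the triple mutant. The ratio of the double mutant to wild type was 1.56 in raw shares and 1.31 after TMM scaling, a scaling that sets the bulk of genes level between libraries. For the triple mutant the ratios to wild type were 1.34 and 1.22, and for hel2∆ 0.853 and 0.874. Depth moved with the share only in part. The deepest library had the highest share in wild type, in the double mutant and in the triple mutant, but the shallowest of these strains did not have the lowest. The part of depth in the difference between strains was not tested. The shallowest hel2∆ and triple-mutant libraries had nearly the same total, 105563 and 104202 reads. Their shares were 0.214% (95% Clopper-Pearson interval 0.187 to 0.244) and 0.357% (0.322 to 0.395), where the intervals cover counting error only.

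**Figure D2:**
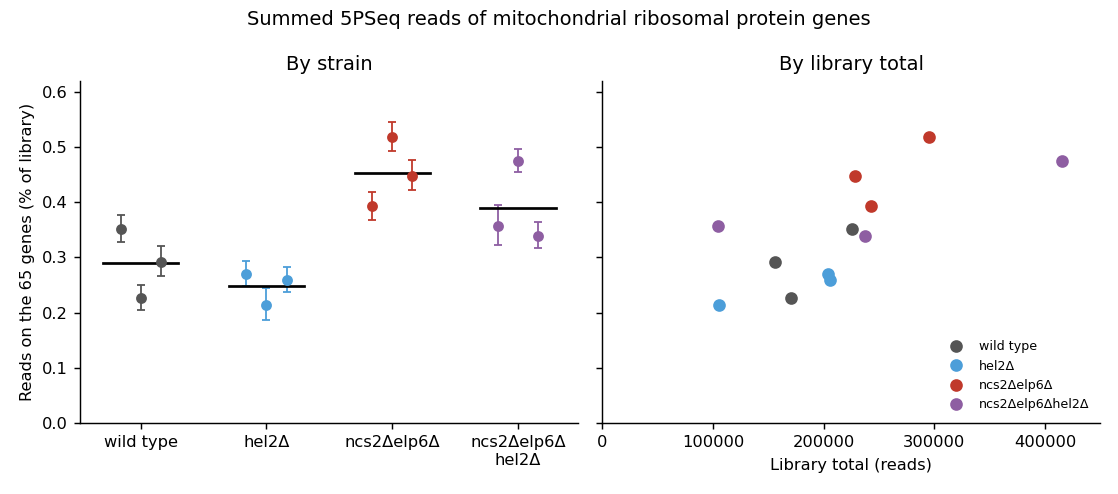
Reads on the 65 genes as a percentage of each library (y axis), by strain on the left, with bars for the 95% Clopper-Pearson interval and lines for the mean of 3 libraries, and against the library total (reads) on the right. The double-mutant libraries lie between 0.393% and 0.518%, above the wild-type libraries, and in 3 of the 4 strains the deepest library has the highest share.

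The shares of both subunits were higher in the double mutant, and whether the subunits differed was not tested. The large-subunit genes held 0.148% ± 0.037 of the wild-type reads and 0.234% ± 0.026 of the double-mutant reads (SD, n = 3), a ratio of 1.58, or 1.33 after TMM scaling. The small-subunit genes held 0.143% ± 0.025 and 0.220% ± 0.037, a ratio of 1.54, or 1.29 after TMM scaling. The 38 untested genes, which together held 323 wild-type reads and 276 in hel2∆, 640 in the double mutant and 617 in the triple mutant, had a ratio of 1.42 in raw shares and 1.19 after TMM scaling. Their share ran from 0.0464% to 0.0657% in wild type and from 0.0634% to 0.0986% in the double mutant, so the libraries overlapped. Without the 6 genes that passed the test in this comparison, the share of the other 59 genes was 0.248% ± 0.055 in wild type and 0.333% ± 0.052 in the double mutant, a ratio of 1.34, or 1.13 after TMM scaling. Here too the libraries overlapped, at 0.192% to 0.302% in wild type and 0.278% to 0.382% in the double mutant.

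Single genes were examined first in the double mutant, which lacks the U34 modifications made with Ncs2 and Elp6, against wild type. Of the 27 tested genes, 6 had more 5PSeq reads in the double mutant and none had fewer. Among all 3378 genes tested, 13.4% were higher and 16.7% lower. The 6 genes were MRP51, MRP13 and MRP4 of the small subunit and MRP20, MRPL20 and MRPL36 of the large subunit. The places of MRP13 and MRPL20 among the tested genes may rest on the rise itself, as described below. Of the 27 log2 fold changes 22 (81.5%) were positive, where 52.0% were over all genes tested. The median of the 27 was 0.32 (quartiles 0.04 and 0.69), against 0.04 over all genes tested. The median was 0.41 for the 13 large-subunit and 0.23 for the 14 small-subunit genes.

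MRP51 (YPL118W, chromosome XVI, 326628 to 327662 in R64), a small-subunit protein linked by genetics to translation from the leaders of mitochondrial messages, rose most. The wild-type libraries held 26, 8 and 5 reads, which is 114, 53.0 and 35.1 CPM, and 62, 114 and 57 reads in the double mutant, which is 240, 328 and 222 CPM. Every double-mutant library was above every wild-type library, although wild type itself spread widely. The log2 fold change was 1.87 (SE 0.35, edgeR adjusted p = 1.96e-04). In hel2∆ the level was 26.3, 110 and 70.2 CPM, and in the triple mutant 176, 183 and 115 CPM.

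MRP20 (YDR405W, chromosome IV, 1277646 to 1278437), the exit-tunnel protein, was measured with the most reads of the 6. It had 44, 26 and 25 reads in wild type (193, 172 and 176 CPM) and 131, 131 and 100 in the double mutant (507, 377 and 389 CPM). Replicates of the wild type lay close together, with 180 ± 10.9 CPM (SD, n = 3), and the double mutant had 425 ± 72.1. The log2 fold change was 1.22 (SE 0.24, edgeR adjusted p = 3.22e-04). Levels in hel2∆ (142, 221 and 206 CPM) and the triple mutant (264, 275 and 154 CPM) spanned the wild-type range.

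The other 4 genes rested on fewer reads. MRP13 (YGR084C, chromosome VII, 647123 to 648142), a small-subunit protein without a bacterial counterpart, had 4, 4 and 6 reads in wild type and 19, 26 and 15 in the double mutant, or 28.7 ± 12.5 and 68.9 ± 9.14 CPM. Its log2 fold change was 1.34 (SE 0.42, adjusted p = 0.0171 from edgeR's test). Only in the double mutant did MRP13 reach the low-count filter's minimum of 10, scaled to library size, in every library. That MRP13 was tested at all may therefore rest on its rise. MRPL20 (YKR085C, chromosome XI, 599094 to 599681) had 7, 6 and 7 reads against 16, 30 and 21, or 39.9 ± 9.28 against 76.7 ± 12.9 CPM, a log2 fold change of 0.99 (SE 0.35, adjusted p = 0.0345). No wild-type or hel2∆ library of MRPL20 reached the filter's minimum, while every library of the double and triple mutants did. That MRPL20 was tested may therefore also rest on its rise. In both MRP13 and MRPL20 the lowest double-mutant library was above the highest wild-type library.

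MRPL36 (YBR122C, chromosome II, 483970 to 484503), the bL31 protein, had 14, 8 and 13 reads in wild type and 29, 50 and 26 in the double mutant, or 68.5 ± 20.2 and 119 ± 22.1 CPM. The log2 fold change was 0.83 (SE 0.31, adjusted p = 0.0472 from edgeR's test). MRP4 (YHL004W, chromosome VIII, 99219 to 100403), the uS2 protein, had 17, 7 and 12 reads against 24, 53 and 29, or 68.4 ± 19.7 against 119 ± 30.3 CPM, with 0.81 (SE 0.31, adjusted p = 0.0477). It overlaps the annotated frame YHL005C on the opposite strand, and reads were mapped in the sense direction only. For MRPL36 and MRP4 the gap between the strains was small, from 91.4 to 101 CPM and from 84.3 to 93.0 CPM.

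**Figure D3:**
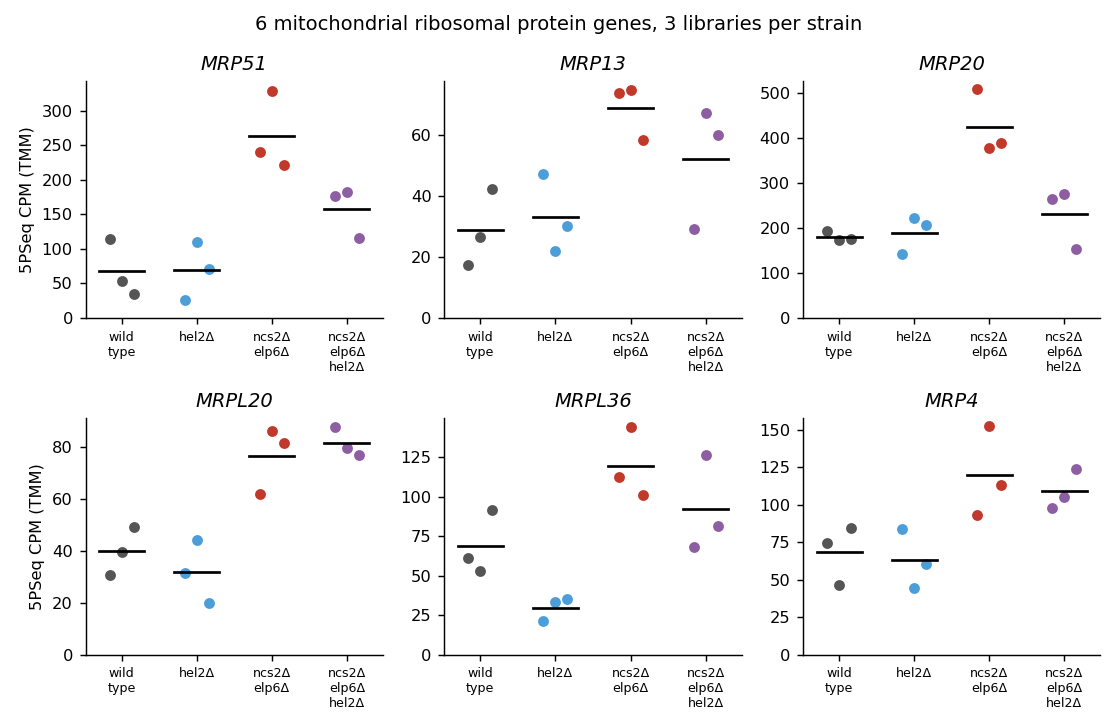
5PSeq level (y axis, CPM scaled by TMM, from 0) of the 6 genes that were higher in the double mutant than in wild type, in the 12 libraries. Points are libraries and lines are means of 3. In each panel the 3 double-mutant points lie above the 3 wild-type points, and the triple mutant falls back towards wild type for MRP20 but not for MRPL20.

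Each of the 12 libraries was left out in turn, and MRP51 and MRP20 passed every time. MRP13 kept its call in 10 of the 12 fits, MRPL20 in 8, MRPL36 in 6 and MRP4 in 5. Only 6 of these fits left out a wild-type or double-mutant library. Of those 6, MRP13 kept its call in 4, MRPL20 in 2, MRPL36 in 2 and MRP4 in 1. The number of genes called fell to 2 without wild-type replicate 2. The 12 fits tested 31 to 37 of the 65 genes, and in 8 of them 1 or 2 genes were lower, MRPL9 in all 8 and MRPL11 in 1. Calls also depended on the fit. DESeq2 called 2 of 27 genes higher, where 312 of 3378 genes in all were. With the log2 library total as a covariate 3 of 27 were higher, where 352 of 3378 were. The fit of these strains alone gave 3 of 26, where 432 of 3095 were higher. After every library was thinned to the smallest total it was 4 of 18, where 313 of 2377 were. Apart from the thinned libraries, the share of these genes was close to that of all genes in these fits.

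The libraries of the double mutant and wild type did not overlap for 12 of the 27 genes. In 9 of them the double mutant was higher, where 21.5% of all genes tested were, and in 3 it was lower, where 22.3% were. Beside the 6 genes above, the higher ones were MRPS18, MRPS35 and RSM28, none of which passed the test (log2 fold changes 0.26, 0.50 and 0.41). The lower ones were MRPL17, MRPS12 and MRPS9, with log2 fold changes of −0.70, −0.94 and −0.32 and unadjusted p of 0.0605, 0.0389 and 0.116 from edgeR's test. MRPS9, the gene with the most reads, thus stood at 415 ± 44.4 CPM in wild type and 333 ± 25.4 in the double mutant, on the opposite side from MRP20 and MRP51.

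The study named RQC targets, transcripts with more collided ribosomes in the double mutant and fewer in the triple mutant, from ribosome footprints and not from these libraries. They include 7 of the 65 genes, MRPL17, MRPL22, MRPL24, MRPL28, MRPL33, MRPS17 and MRPS28, and its contrasting list of RQC-refractory transcripts includes none. The labels of the supplementary table were followed, which give 137 RQC targets and 188 RQC-refractory transcripts. The legend and the main text of the study state these sizes in opposite order. Of the 7 genes, 3 were tested and none passed, too few to set against the background share of 13.4%. The 6 genes that rose were all outside the list, as were 24 of the 27 genes tested. Of the 86 RQC targets tested in all, 27.9% were higher in the double mutant and 2.33% lower, where 13.4% and 16.7% of all genes were. Whether these shares differ was not tested.

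MRPL24 had 293, 166 and 253 CPM in wild type, 168, 199 and 186 in hel2∆, 322, 397 and 280 in the double mutant, and 274, 393 and 372 in the triple mutant. The strains with and without U34 modification overlapped, and the log2 fold change in the double mutant was 0.48 (SE 0.23, adjusted p = 0.119 from edgeR's test). It passed in 1 of 12 leave-one-out fits, without wild-type replicate 1 (0.74, adjusted p = 0.0395). MRPL22, the uL22 protein that also lines the exit tunnel, stayed between 45.2 and 91.4 CPM in all 12 libraries (log2 fold change 0.24, SE 0.32, adjusted p = 0.614). MRPL17, the mL46 protein, had 74.4, 59.6 and 49.2 CPM in wild type, 38.7, 37.4 and 38.9 in the double mutant and 58.6, 58.8 and 59.8 in the triple mutant. Its double-mutant libraries were the lowest, but with 10, 13 and 10 reads the difference did not pass (adjusted p = 0.141).

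The other 4 RQC targets were not tested. MRPS28, the uS15 protein, had 7, 1 and 6 reads in wild type and 12, 13 and 10 in the double mutant. MRPL28 had 6, 2 and 3 against 7, 11 and 4, and MRPS17, the uS17 protein, had 4, 1 and 4 against 6, 13 and 8. MRPL33, the uL30 protein, had 4, 0 and 1 wild-type reads, none in hel2∆, 1, 6 and 4 in the double mutant and 1, 5 and 0 in the triple mutant. Without the low-count filter none of the 4 passed, with log2 fold changes of 0.63 for MRPS28 (SE 0.50), 0.30 for MRPL28 (SE 0.60), 0.86 for MRPS17 (SE 0.60) and 0.43 for MRPL33 (SE 0.88). On the study's protein lists, 40 of the 65 were among 400 non-aggregating proteins and none among 609 aggregation-prone ones. These 400 and 609 are the entries in the copy used here, slightly fewer than the study states. Of all 6302 genes, 377 and 600 were found on the lists. The study put a protein on the first list when aggregates of the double mutant held less of it than those of wild type, by more than 2-fold. It put a protein on the other list when they held more, again by more than 2-fold.

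Deletion of HEL2 in cells with U34 modification was examined in hel2∆ against wild type. None of the 27 genes was higher or lower, where 0.0296% and 0.0592% of all genes tested were, and 1 gene had an unadjusted p under 0.05 in edgeR's test, where 4.17% of all genes did. DESeq2 called none of them either. That gene was MRPL36, chosen here after its values were seen, with 61.3, 53.0 and 91.4 CPM in wild type and 21.0, 33.1 and 35.1 in hel2∆. It was the one gene whose libraries did not overlap, in the lower direction, against 5.45% of all genes in that direction and 4.74% in the other. It rested on 4, 3 and 7 reads in hel2∆, and its log2 fold change of −1.19 (SE 0.44) had an adjusted p of 0.980. Over the 27 genes 9 fold changes (33.3%) were positive, where 48.7% were over all genes. The median was −0.21, against −0.01 over all genes.

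The triple mutant was compared with wild type next, a contrast that changes HEL2 together with the U34 modification genes. None of the 27 genes passed in either direction, where 4.85% of all genes were higher and 6.22% lower, while 6 had an unadjusted p under 0.05 in edgeR's test and 3 in DESeq2, which called none. Over all genes 25.6% and 19.4% were under 0.05 in the 2 tests, so the members' counts were not above the background. The direction was still mostly upward, with 20 positive fold changes (74.1%), where 51.6% were positive over all genes. The median was 0.29 against 0.02 over all genes. The largest fold changes were MRPL31 (1.44, SE 0.54, adjusted p = 0.0901), MRP51 (1.12, SE 0.37, adjusted p = 0.0522), MRP13 (1.09, SE 0.43, adjusted p = 0.111) and MRPL20 (1.05, SE 0.36, adjusted p = 0.0600). No wild-type or hel2∆ library of MRPL31, MRP13 or MRPL20 reached the low-count filter's minimum. Their place among the 27 may therefore rest on their rise.

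MRP51 had 158 ± 37.1 CPM in the triple mutant against 67.3 ± 41.2 in wild type, and its lowest library there (115 CPM) was just above the highest wild-type library (114 CPM). It passed in 4 of 12 leave-one-out fits. MRPL20 had 88.0, 79.9 and 76.9 CPM against 30.6, 39.7 and 49.2, or 81.6 ± 5.72 CPM, where the double mutant had 76.7 ± 12.9. MRPL31, chosen here after its values were seen, had 6, 21 and 11 reads in the triple mutant and 5, 3 and 1 in wild type. No overlap was found for 6 genes, all higher in the triple mutant, MRP4, MRP51, MRPL20, MRPL31, MRPS18 and MRPS35, where 13.6% of all genes were higher without overlap and 12.7% lower.

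The triple mutant was then compared with the double mutant to see the effect of deleting HEL2 where U34 modifications are missing. MRP20 was the 1 gene of 27 that fell and none rose, where 1.01% of all genes were lower and 4.68% higher. It had 507, 377 and 389 CPM in the double mutant and 264, 275 and 154 in the triple mutant, so the strains did not overlap. The log2 fold change was −0.87 (SE 0.23, edgeR adjusted p = 0.0216). MRP20 in the triple mutant was then close to wild type (231 ± 67.1 and 180 ± 10.9 CPM, log2 fold change 0.35, SE 0.25, adjusted p = 0.418). Leaving out each library in turn, it passed in 10 of 12 fits and was lost without double-mutant replicate 1 and without triple-mutant replicate 3.

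MRP51 was lower too, with no overlap (240, 328 and 222 against 176, 183 and 115 CPM), but did not pass (log2 fold change −0.74, SE 0.30, adjusted p = 0.154). These were the 2 genes lower without overlap, where 8.2% of all genes were. In the other direction MRPL17, MRPS9 and RSM23 did not overlap, where 13.9% of all genes were higher, and none of the 3 passed. MRP13, MRPL20, MRPL36 and MRP4 had log2 fold changes between −0.27 and 0.06. Over the 27 genes 11 fold changes (40.7%) were positive, where 53.3% were over all genes. The median of the 27 was −0.09, against 0.03 over all genes, and it was 0.059 without double-mutant replicate 2.

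**Figure D4:**
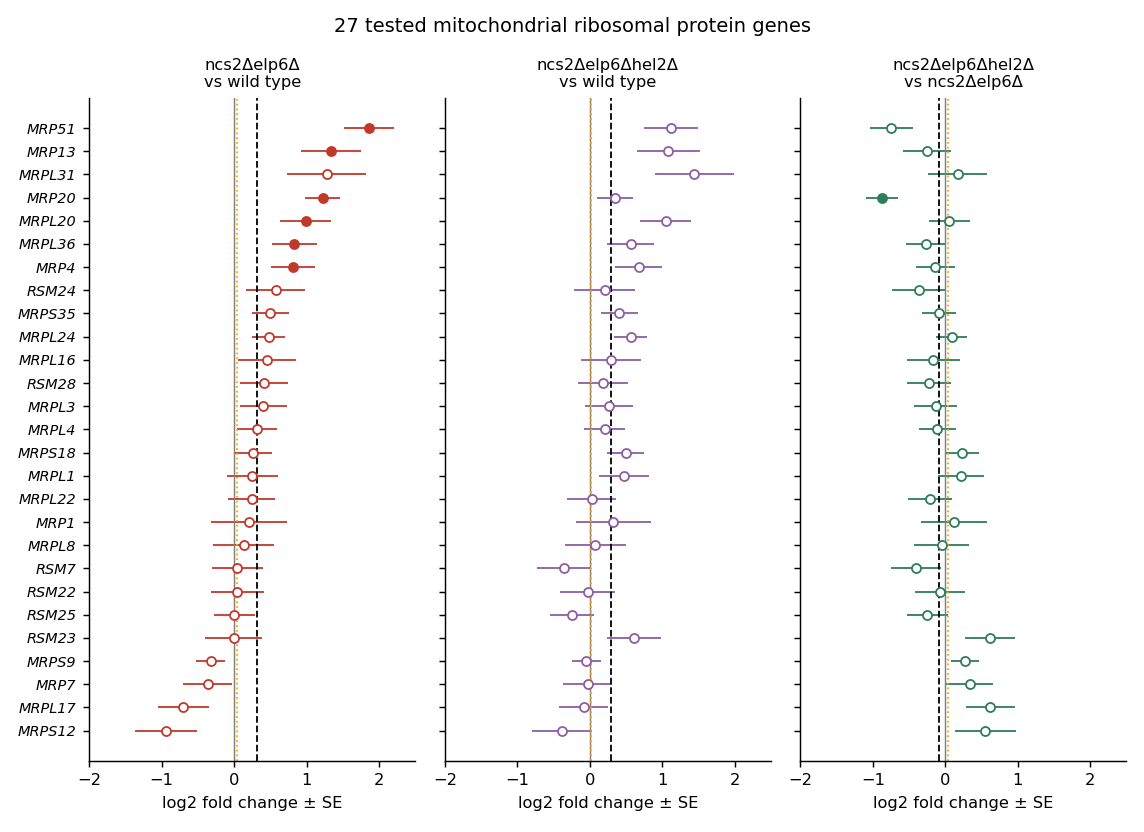
Log2 fold change with its standard error (x axis) of the 27 tested genes (y axis) in 3 comparisons that share libraries. Filled points have an adjusted p under 0.05, dashed lines mark the median of the 27 genes and dotted lines that of all 3378 genes tested. The 6 filled genes on the left lie between 0.81 and 1.87, none is filled in the middle, and MRP20 at −0.87 is the one filled on the right.

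Whether deleting HEL2 acted differently with and without U34 modification was asked by an interaction term, which takes the change from the double mutant to the triple mutant minus that from wild type to hel2∆. No gene of the 27 passed in either direction, where 0% of all genes were higher and 0.0296% lower, and 2 had an unadjusted p under 0.05 in edgeR's test. DESeq2 called none and gave 1 such gene. Over all genes 9.71% were under 0.05 in edgeR's test and 6.9% in DESeq2. The 2 were MRP20, with −0.91 (SE 0.35, adjusted p = 0.335), and MRP7, the bL27 protein, with 1.07 (SE 0.51, adjusted p = 0.50). The median was 0.16 against 0.08 over all genes. The fall of MRP20 with HEL2 deletion was thus not shown to depend on U34 modification.

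Among the 38 genes that could not be tested, the mean level was higher in the double mutant than in wild type for 27, higher in the triple mutant than in wild type for 25 and higher in hel2∆ than in wild type for 17. The same counts were not made over other untested genes, so they do not set these 38 apart. Without the low-count filter all 65 genes were fitted. In the double mutant 5 were then higher and 2 lower than in wild type, where 8.25% and 10.6% of all 6302 genes were, among them 3 that the filter leaves out and that are named after their values were seen. MRP17, the bS6 protein, had 1, 0 and 0 reads in wild type and 4, 17 and 5 in the double mutant. MRPL9, the uL3 protein, had 7, 9 and 5 reads against 2, 6 and 1, and MRPL27 had 1, 0 and 4 against none. MRPL9 passed the filter in 10 of the 12 leave-one-out fits and was lower in 8 of these (log2 fold change −2.63 to −1.59). RSM27, MRPL37, MRPL44 and MRPL50 also had no read in the 3 libraries of some strain, with at most 9 reads in any other, and are not compared.

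Other parts of the mitochondrial translation system were counted from lists set by function. The genes they name were chosen after their values were seen. For all genes tested, 13.4% rose and 16.7% fell in the double mutant, and the shares of the small lists that follow were not tested against these. A list of 13 further genes taken as mitoribosomal, which the symbol rule leaves out, includes YMR31 and PPE1. Whether these 2 are ribosomal proteins was not checked. Of the 13 genes 5 were tested, of which none rose and 2 fell in the double mutant, with a median of 0.02. NAM9, the uS4 protein of the small subunit, had 293, 291 and 323 CPM in wild type, 257, 221 and 211 in hel2∆, 101, 115 and 167 in the double mutant, and 244, 187 and 278 in the triple mutant. The double-mutant libraries were below those of every other strain. Its log2 fold change was −1.24 against wild type (SE 0.24, adjusted p = 2.29e-04 from edgeR's test), and 0.86 in the triple mutant against the double mutant (SE 0.24, adjusted p = 0.0299).

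IMG1, the bL19 protein of the large subunit, had 91.9, 99.3 and 155 CPM in wild type and 31.0, 40.3 and 70.1 in the double mutant, a log2 fold change of −1.26 (SE 0.33, adjusted p = 0.00439 from edgeR's test). It stood at 89.6 ± 9.99 CPM in the triple mutant. With each library left out in turn, these falls of NAM9 and IMG1 passed in all 12 fits (IMG1 was lost after thinning), while the call of NAM9 between the triple mutant and the double mutant was kept in 8. Proteins of the same ribosome therefore had both rises and falls in 5PSeq reads.

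Of 8 tested mitochondrial translation factors, 1 rose and 2 fell in the double mutant, with a median of −0.40. The elongation factor MEF1 fell from 117 ± 14.8 to 49.3 ± 6.13 CPM (log2 fold change −1.21, SE 0.33, adjusted p = 0.00665 from edgeR's test). MEF2, whose human homologue acts in ribosome recycling, fell from 342 ± 36.2 to 127 ± 21.4 CPM (−1.42, SE 0.26, adjusted p = 1.47e-04) and stood at 273 ± 92.8 in the triple mutant, higher than in the double mutant (1.05, SE 0.26, adjusted p = 0.0161), a call kept in 9 of 12 leave-one-out fits. The initiation factor IFM1 rose from 151 ± 56.6 to 257 ± 32.0 CPM (0.73, SE 0.28, adjusted p = 0.0481 from edgeR's test). This call was kept in 5 of 12 leave-one-out fits, and in 2 of the 6 that left out a wild-type or double-mutant library.

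Of 10 tested genes for assembly and membrane tethering of the mitoribosome, 1 rose and 2 fell, with a median of −0.16. Of the named genes GEP3, a GTPase needed for the small subunit, fell most. It had 290, 319 and 305 wild-type reads, 313, 140 and 251 in hel2∆, 78, 102 and 81 in the double mutant, and 66, 198 and 273 in the triple mutant. The log2 fold change was −2.59 in the double mutant against wild type (SE 0.30, adjusted p = 6.68e-07 from edgeR's test), −1.31 in the triple mutant against wild type (SE 0.28, adjusted p = 0.00357) and 1.28 between the mutants (SE 0.29, adjusted p = 0.00934). The last call was kept in 10 of 12 leave-one-out fits, lost without double-mutant replicate 2 and without triple-mutant replicate 3, and its value ran from 0.76 to 1.55. MRM2, which methylates the large ribosomal RNA, fell by 1.74 (SE 0.42, adjusted p = 0.00263), and MDM38, a membrane protein that binds mitochondrial ribosomes, rose by 0.86 (SE 0.22, adjusted p = 0.00338). Of 10 tested translational activators 1 rose, CBP1, which stabilises the cytochrome b message (0.79, SE 0.29, adjusted p = 0.0406), and none fell. The call of CBP1 was kept in 7 of 12 leave-one-out fits, but in only 1 of the 6 that left out a wild-type or double-mutant library. It was also lost with DESeq2, with the library total as a covariate and after thinning.

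Genes of the cytosolic ribosome, the particle that makes these proteins, had a larger median shift. Of 123 tested, 44 were higher and 2 lower in the double mutant than in wild type, where 13.4% and 16.7% of all genes were. Their median was 0.62, where the mitoribosomal genes had 0.32. Between the triple mutant and the double mutant, 8 were lower and 1 higher, where 1.01% and 4.68% of all genes were. The median was −0.40 against −0.09. Whether these lists differed was not tested.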

How the data were processed

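5PSeq was measured in 12 libraries, 3 for each of 4 strains. The authors trimmed adapters with cutadapt, removed noncoding RNA with STAR 2.5.3a, mapped reads to annotated open reading frames with Bowtie 1.2.3 and collapsed PCR duplicates by their barcodes with UMI-tools, per the labels and the paper's methods. The deposited values are whole-number read counts per open reading frame without normalization, on sacCer3, which is R64. The labels and column names gave strain and replicate for all 12 columns.

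The quasi-likelihood test of edgeR 4.0.16 (R 4.3.3) was run on TMM-scaled counts (glmQLFit, filterByExpr with a minimum count of 10, 3378 genes), with strain as the only factor and all 12 libraries in the fit. The SE is the log2 fold change divided by the square root of F. The floor of 3 counts lay between 7.22e-04% and 0.00288% of a library. Length and coordinates came from RefSeq R64. The RNA-seq counts that the study combines with 5PSeq are not used here.

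The genes and lists were chosen with earlier results of these data known. Named by rule are genes with an adjusted p under 0.05, those on the study's RQC lists, the 3 tested genes with the most and the 3 with the fewest reads per length, and the deleted genes. Alternatives were DESeq2 1.42.0, other filters, scalings and covariates, a replicate block, thinning, and each library left out. The test was checked on simulated counts.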

Additional observations from a re-analysis of the deposited data

How the results depend on the processing

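The number of mitoribosomal genes called, 6 of 27 tested in the double mutant against wild type, became 2 with DESeq2, 1 with at least 10 counts in every library (4 genes tested), 3 with the library total as a covariate and 3 with only the strains compared (26 genes tested). Of all genes, 312 of 3378, 264 of 1412, 352 of 3378 and 432 of 3095 were higher in these fits. The triple mutant against wild type went from 0 to 2 without the filter (65 genes tested, 1 higher and 1 lower) and 2 with library totals without TMM, and against the double mutant from 1 to 3 without the filter (1 higher and 2 lower). Of all 6302 genes without the filter, 165 were higher and 249 lower against wild type, and 215 and 96 against the double mutant. Without TMM 253 of 3378 were higher than in wild type. Leaving out each library, with 31 to 37 genes tested, gave 2 to 7, 0 to 1 and 0 to 2 calls, of which 0 to 2, none and 0 to 1 were lower. Without TMM the median of all genes in the double mutant moved from 0.04 to 0.29 and that of the 27 from 0.32 to 0.56 (9 higher), and in the triple mutant against wild type to 0.45 (all genes 0.18). With at least 10 counts in every library the medians were 0.47 for the triple mutant against wild type, 0.14 against the double mutant, which reverses it, and 0.41 for the interaction. Leave-one-out medians ran from 0.18 to 0.54 in the double mutant, 0.081 to 0.50 in the triple mutant, −0.37 to −0.059 in hel2∆ and −0.14 to 0.059 between the mutants, reversed without double-mutant replicate 2. The causes were not tested.

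The labels do not say whether same-numbered replicates belong together. The mean correlation of their deviations from the strain means ran from −0.07 to 0.19. Between the triple mutant and the double mutant it was 0.085, 0.27 and 0.22 for the 3 numbers. With wild type, replicate 2 had −0.20 in the double mutant and −0.22 in the triple mutant. What the numbers share was not tested. With the replicate block 4 genes were called in the double mutant, 0 in the triple mutant against wild type, 0 in hel2∆ and 1 between the mutants.

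Of the values of named genes under the alternatives, 1664 kept their direction and side of the threshold, 74 lost a call, 13 gained a call and 9 reversed. Reversed were MRP1 in the triple mutant against wild type with the total as covariate (−0.20), MRP51 in hel2∆ when thinned (0.25), and MRPL20 when thinned, in hel2∆ (0.39) and between the mutants (−0.35). The others reversed without 1 library, and their leave-one-out ranges were −0.64 to 0.97 for MRP1 in the triple mutant against wild type, −0.86 to 0.41 for MRP1 between the mutants, −0.45 to 0.40 for IFM1 in the triple mutant against wild type, −0.57 to 0.50 for MRP51 in hel2∆ and −0.059 to 0.73 for MRM2 in hel2∆. None of these was called. The interaction was not run with only the strains compared, and sequence features were not used here. Depth limits the 38 untested genes.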

Other observations

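Open reading frames of the mitochondrial genome, which the mitochondrial ribosomes translate, are also listed in the table, and were examined after other values had been seen. The 21 frames had 1754 wild-type reads, 1021 in hel2∆, 1444 in the double mutant and 1491 in the triple mutant. Their share of a library ran from 0.200% to 0.466% in wild type (middle library 0.234%), 0.123% to 0.281% in hel2∆ (0.155%), 0.154% to 0.233% in the double mutant (0.183%) and 0.159% to 0.219% in the triple mutant (0.194%). The strains overlapped, and the higher share that the nuclear genes had in the double mutant was not seen there. VAR1, the mitochondrial gene for a small-subunit protein, had 6 wild-type reads, 1 in hel2∆ and none in the other strains. MRP8, which the symbol rule leaves out, had 11 wild-type reads, 9 in hel2∆, and 18 and 15 in the double and triple mutants.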
